A study of Mus musculus with 3 samples.

Results

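Twist1 binding regions shared by the endocardial cushions and the limb bud, but not by tumor cells, were examined as the ECC-Limb group of the limb bud peak list. The selection rule asked for 2 things: a peak of the E12.5 endocardial cushion cells (ECCs) had to cover 5% or more of the limb bud peak, and no peak of the peripheral nerve sheath tumor (PNST) cells could cover 5% of it. The rule selected 2993 of the 47664 limb bud peaks on assembled chromosomes of mm9, or 6.28%. The other limb bud peaks comprised 43557 Limb only peaks, 573 Limb-PNST peaks and 541 ECC-Limb-PNST peaks. Membership was chosen by the positions of the called peaks, so the presence of an ECC peak and the absence of a PNST peak are descriptions and were not tested.

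Twist1 was immunoprecipitated with the same antibody in each tissue, and every sample is labelled with the FVB/N strain. The ECC sample was atrioventricular canal cushion tissue at E12.5, the limb bud sample was forelimb buds at E10.5, and the PNST sample was a cultured tumor cell line. There was 1 sample for each tissue, pooled from embryos or culture plates, so no difference between tissues could be compared with the spread between replicates. A tag is a mapped read, and after removal of duplicates 3149934 tags remained in the ECC sample, 14893391 in the limb bud sample and 11823220 in the PNST sample. The limb bud sample therefore had 4.73 times the tags of the ECC sample, and a weak region could be called in limb buds but not in ECCs. The deposited limb bud list is larger, in tags and in peaks, than the limb bud data described in the paper, and the cause was not tested. Every limb bud share and depth given here refers to the deposited list. No control library is named in the file headers, although FVB/N genomic DNA is the control in the methods.

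Twist1 belongs to the basic helix-loop-helix factors, which bind the E-box CANNTG (N is any base) as dimers, and it can pair with itself or with E proteins. It is required for limb bud outgrowth and for the proliferation and migration of the mesenchyme that forms the heart valves, and it is expressed again in many tumors. In ChIP-seq, reads pile up where the factor was bound, but they can also pile up over repeated sequence, because copies absent from the assembly map to those that are present.

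Most of the selected regions, like most limb bud peaks, carried sequence that occurs many times in the mouse genome. Each peak was cut into words of 32 bases (32-mers), and each word was counted over both strands of mm9. In 2176 of the 2993 peaks (72.7%) no 32-mer was unique, and the copy number of the median 32-mer of a peak had a median of 250 over the group. In Limb only peaks the share without a unique 32-mer was 74.4% and the median was 487 copies. Only 75 peaks (2.51%, 95% exact interval 1.98 to 3.13) consisted of at least 50% single-copy 32-mers. This share was 0.948% in Limb only peaks (0.859 to 1.04), 7.68% in Limb-PNST peaks and 23.7% in ECC-Limb-PNST peaks. Exact binomial intervals here and below cover counting error only, since the peaks of 1 sample are not replicates and many hold copies of the same sequence.

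Copies of the same sequence accounted for much of the group. At least 1 32-mer was shared with another member in 2720 peaks (90.9%). No matching share is given for Limb only peaks, so this sharing is not shown to be particular to the group. The 12 most widely shared 32-mers, picked for the members each added, covered 830 peaks (27.7%). This share was raised by that choice, and no matching share of Limb only peaks is given for it either. Of these 12, 10 are listed below, as examples of the sequence that members share. They were ranked by the number of members each added, are read from mm9 in the orientation that comes first in the alphabet, and carry an E-box in capitals where they hold one.
R1: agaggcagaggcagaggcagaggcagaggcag
R2: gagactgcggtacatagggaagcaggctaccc
R3: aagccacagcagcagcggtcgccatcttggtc
R4: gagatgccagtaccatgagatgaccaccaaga
R5: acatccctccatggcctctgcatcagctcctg
R7: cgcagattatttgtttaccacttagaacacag
R9: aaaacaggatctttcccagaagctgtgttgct
R10: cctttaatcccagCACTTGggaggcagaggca
R11: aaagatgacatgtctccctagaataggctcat
R12: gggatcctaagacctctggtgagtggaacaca

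R1 is a tandem run of a 6-base unit, AGAGGC. It lay in 171 ECC-Limb peaks (5.71%) on 20 chromosomes and in 462 Limb only peaks (1.06%). R4 was held by 69 ECC-Limb peaks (2.31%) and by 157 Limb only peaks (0.360%). For R10 the order was the other way, with 1.403% of ECC-Limb peaks against 1.71% of Limb only peaks. R10 matches the start of the B1 short interspersed element, one of the most abundant repeats of the mouse genome, and was the only sequence of these 10 that held an E-box, CACTTG. No repeat annotation was used, and the other sequences are not named.

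Tags over these sequences were close to those of the whole group, whose medians were 12 limb bud and 6 ECC tags. Medians of the 10 listed ran from 10 (R9) to 17 (R11) limb bud tags. For ECC tags they ran from 5 (R5) to 7. R1 peaks had between 8 and 55 limb bud tags with a median of 13, and their ECC peaks had between 5 and 22 with a median of 6. R3 peaks had medians of 12 and 6 tags.

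**Figure D1:**
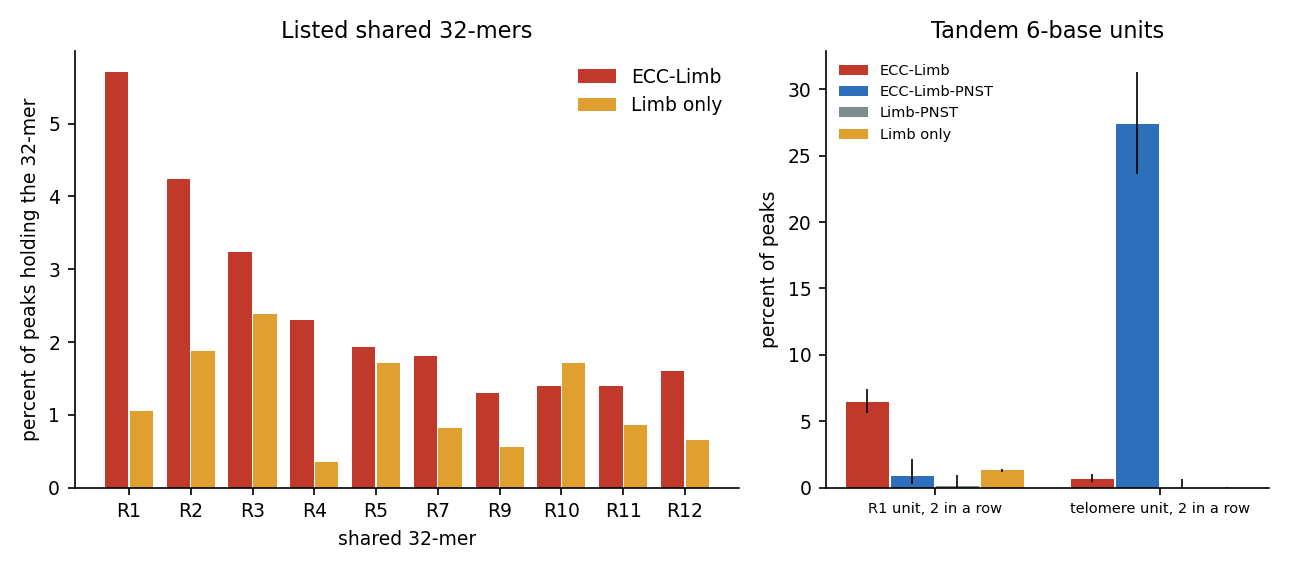
Left, percent of ECC-Limb peaks (red) and Limb only peaks (orange) holding each of the 10 listed 32-mers, which were picked by their number in ECC-Limb peaks. Right, percent of peaks in the 4 groups holding 2 units in a row of the R1 unit or of the telomere unit. Lines are 95% exact binomial intervals. The R1 unit, picked for its number in ECC-Limb peaks, was held by 6.48% of them, and the telomere unit by 27.4% of ECC-Limb-PNST peaks.

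The tandem units differed in frequency between the ECC-Limb peaks and the peaks found in all tissues. These units were counted after the sequences had been seen, on both strands. At least 2 AGAGGC units in a row occurred in 194 ECC-Limb peaks (6.48%, 5.63 to 7.42), in 5 ECC-Limb-PNST peaks (0.924%, 0.301 to 2.14), in 570 Limb only peaks (1.31%, 1.204 to 1.42) and in 1 Limb-PNST peak. The telomere unit TTAGGG occurred 2 or more times in a row in 148 of the 541 ECC-Limb-PNST peaks (27.4%, 23.6 to 31.3). Among ECC-Limb peaks it was found in 20 (0.668%, 0.409 to 1.03), on 13 chromosomes, and among Limb only peaks in 7. The intervals of the ECC-Limb and ECC-Limb-PNST shares did not overlap for either unit. This is not a test of a difference, because the groups were formed from the called peaks. In addition, R1 was picked for the number of ECC-Limb peaks that held it, so a high share of its unit there follows from the choice.

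Whole peaks illustrate the range of sequence in the group. The following mm9 sequences are of the plus strand, with E-boxes in capitals. Trpm3, Copz1 and Fgf14 were among the 10 peaks near a gene with the highest limb bud fold enrichment, Vwa3a shows the R1 unit on its other strand, Ror2 holds R4, Sema5b is a triplet run, Nipal2 has repeated E-boxes, and Mid1, Cdc42bpa, Daam1, Cdh13 and Tln2 are discussed with the genes.
Trpm3 (chr19:22926499-22926605): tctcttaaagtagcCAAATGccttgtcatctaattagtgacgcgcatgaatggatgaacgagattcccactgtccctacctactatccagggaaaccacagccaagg
Copz1 (chr15:103106454-103106621): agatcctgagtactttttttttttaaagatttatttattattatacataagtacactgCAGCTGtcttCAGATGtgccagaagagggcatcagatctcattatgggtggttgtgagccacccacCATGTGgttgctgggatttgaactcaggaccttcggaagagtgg
Fgf14 (chr14:125067576-125067753): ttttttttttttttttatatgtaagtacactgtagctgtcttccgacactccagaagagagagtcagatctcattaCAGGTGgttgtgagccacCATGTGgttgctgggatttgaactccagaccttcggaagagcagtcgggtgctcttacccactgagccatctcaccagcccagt
Vwa3a (chr7:127913506-127913583): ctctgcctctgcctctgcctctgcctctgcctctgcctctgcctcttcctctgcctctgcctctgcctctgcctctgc
Ror2 (chr13:53231694-53231864): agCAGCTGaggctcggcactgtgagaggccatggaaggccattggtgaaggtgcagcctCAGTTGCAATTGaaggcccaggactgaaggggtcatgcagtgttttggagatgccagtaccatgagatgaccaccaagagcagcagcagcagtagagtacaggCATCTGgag
Sema5b (chr16:35643864-35644121): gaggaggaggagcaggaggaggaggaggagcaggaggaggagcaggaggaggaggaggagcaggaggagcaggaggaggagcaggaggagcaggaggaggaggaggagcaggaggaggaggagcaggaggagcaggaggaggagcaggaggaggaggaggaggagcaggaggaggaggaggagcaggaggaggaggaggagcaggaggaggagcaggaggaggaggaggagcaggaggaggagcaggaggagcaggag
Nipal2 (chr15:34559797-34559932): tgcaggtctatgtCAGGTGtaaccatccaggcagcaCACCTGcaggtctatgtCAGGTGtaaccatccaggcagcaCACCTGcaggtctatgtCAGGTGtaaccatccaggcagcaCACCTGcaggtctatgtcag
Mid1 (chrX:166431337-166431500): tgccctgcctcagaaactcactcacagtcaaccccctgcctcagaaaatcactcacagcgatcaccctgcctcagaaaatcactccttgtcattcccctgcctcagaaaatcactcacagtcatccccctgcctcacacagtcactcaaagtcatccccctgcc
Cdc42bpa (chr1:181855139-181855296): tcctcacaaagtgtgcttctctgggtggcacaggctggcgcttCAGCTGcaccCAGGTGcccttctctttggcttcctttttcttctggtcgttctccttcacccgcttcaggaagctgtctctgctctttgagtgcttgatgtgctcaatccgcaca
Daam1 (chr12:73110737-73110877): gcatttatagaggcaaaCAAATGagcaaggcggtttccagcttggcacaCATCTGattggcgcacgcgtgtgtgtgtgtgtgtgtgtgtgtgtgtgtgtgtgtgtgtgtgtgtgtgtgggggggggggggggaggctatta
Cdh13 (chr8:121371107-121371185): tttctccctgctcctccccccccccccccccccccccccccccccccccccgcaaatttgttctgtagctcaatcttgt
Tln2 (chr9:67163203-67163310): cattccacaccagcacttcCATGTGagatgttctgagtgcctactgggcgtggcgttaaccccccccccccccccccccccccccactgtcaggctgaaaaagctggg

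The tags of the limb bud peaks were compared with those of the ECC peaks that overlapped them. Limb bud peaks of the group had between 8 and 715 tags, with quartiles of 9, 12 and 18. The matching ECC peaks had between 5 and 160 tags, with quartiles of 5, 6 and 8. In 1030 members (34.4%) the ECC peak held 5 tags, the fewest of any peak in the ECC list. Both peaks were short, with a median of 164 bp in limb buds and 182 bp in ECCs, and the ECC peak covered a median of 74.4% of the limb bud peak.

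When tags were divided by the filtered total of each sample, the ECC value was above the limb bud value in 2875 of 2993 members (96.1%). The median ratio of ECC to limb bud tags was 2.55 (95% order-statistic interval 2.36 to 2.58), with quartiles of 1.84 and 3.15 and a range from 0.250 to 18.9. A ratio of at least 2 was found for 2076 members (69.4%, 67.7 to 71.0), against 70.1% of the 3534 placed limb bud peaks with any ECC peak. A ratio of 0.5 or less was found for 11 members (0.368%), against 0.424%. The 2993 members are themselves most of these 3534 peaks, so the closeness of both shares to this background was largely fixed. As the rule requires a called ECC peak, the ratio is bounded from below. The fewest tags of a peak came to 1.59 per 1000000 filtered tags in ECCs and 0.537 in limb buds, and 2550 members (85.2%) had a limb bud level below this lowest ECC level.

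The ratio fell as limb bud tags rose. Limb bud tags are its denominator and no ECC peak had fewer than 5 tags, so part of this fall was fixed by construction. Members with 8 or 9 limb bud tags had a median ratio of 3.15, those with 10 to 12 tags 2.58, those with 13 to 19 tags 1.95, those with 20 to 49 tags 1.45 and the 136 members with 50 or more tags 1.22. Median ECC tags in these bins were 6, 6, 6, 8 and 28. In the same bins, the ECC-Limb group made up 3.70%, 5.79%, 10.0%, 15.6% and 27.0% of placed limb bud peaks. The share found in all tissues was 0.131% in the lowest bin and 40.8% in the highest, so among limb bud peaks of 50 or more tags there were more ECC-Limb-PNST peaks than ECC-Limb peaks. Of the Limb only peaks, 42234 (96.96%) had a limb bud level below the lowest ECC level. So had 2550 of the 2993 members (85.2%), for which an ECC peak was called. The part of depth in the absence of an ECC peak was not tested.

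**Figure D2:**
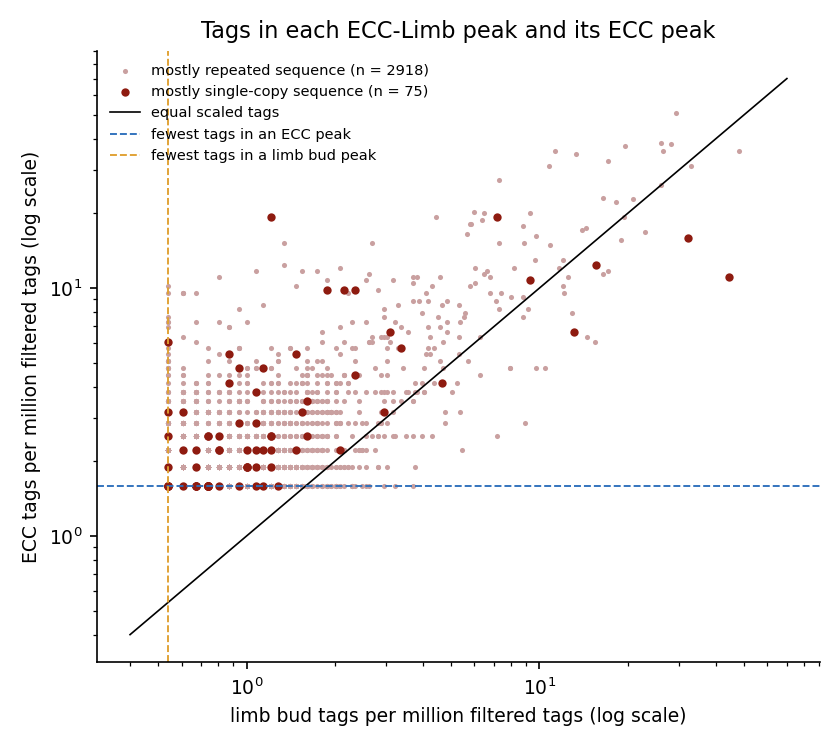
Each point is 1 ECC-Limb peak, with limb bud tags per 1000000 filtered tags on the x axis and those of its ECC peak on the y axis, both log scales. Points of low limb bud tags lie above the line of equal scaled tags and rest on the lowest ECC level of 1.59 per 1000000; no sample has replicates.

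**Figure D3:**
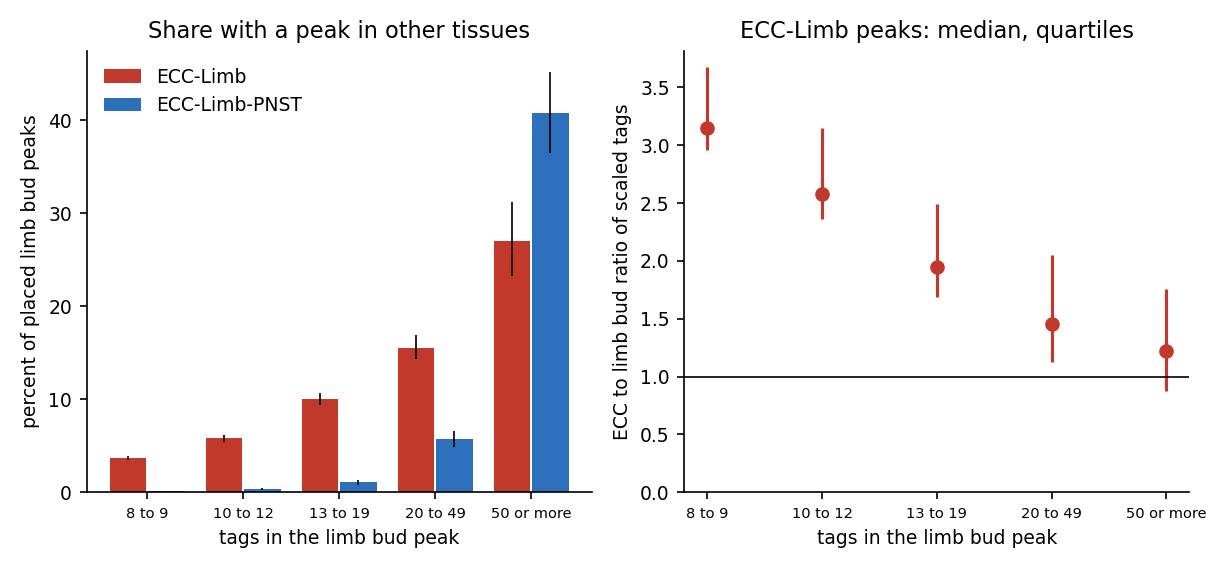
Left, percent of placed limb bud peaks that were ECC-Limb (red) or ECC-Limb-PNST (blue), by limb bud tags, with 95% exact binomial intervals. Right, the ECC to limb bud ratio of scaled tags in ECC-Limb peaks, as median (points) and quartiles (lines), which lies between 3.15 in the lowest and 1.22 in the highest bin. Limb bud tags are the denominator of this ratio, so part of its fall is fixed by construction.

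The PNST sample was closer to the limb bud sample in depth. The fewest tags in a PNST peak came to 0.592 per 1000000, and 2520 members (84.2%) had a limb bud level above this. A PNST peak within 1 Kb was present for 80 members, and 3 members were touched by a PNST peak over less than 5% of their length. Just inside the PNST limit was a peak with 4.68% overlap (9 limb bud and 7 ECC tags), and just outside was one with 6.45% (641 and 253 tags). At the ECC limit, the nearest peaks had 5.02% overlap inside (14 and 7 tags) and 4.93% outside (8 and 6 tags), and 52 limb bud peaks were left out because the ECC overlap was below 5%.

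As members were selected for overlapping peaks of these lengths, the distance between their summits is limited by the rule and is given as a description. The median distance between the limb bud and the ECC summit was 46 bp (44 to 49), and 1575 members (52.6%) had summits within 50 bp. In the 75 mostly single-copy members this distance was 10 bp, against 47 bp in the other 2918. Single-copy members also had a higher fold enrichment, in which MACS divides the summit tags by the local background, with medians of 23.5 in limb buds and 43.3 in ECCs, against 13.8 and 26.5. Their medians of 15 limb bud and 7 ECC tags were close to the 12 and 6 tags of the others.

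E-boxes were present in 1549 ECC-Limb peaks (51.8%, 49.9 to 53.6) and in 56.7% of Limb only peaks (56.3 to 57.2). The number of E-boxes per Kb was 5.51 and 5.67, respectively, and was 4.04 in ECC-Limb-PNST peaks. Within 50 bp of the summit an E-box was found in 1070 members (35.8%) and in 40.5% of Limb only peaks. Around the summits of ECC-Limb peaks, E-boxes were slightly denser at the centre than at the flanks, with 5.65 ± 0.125 per Kb (Poisson standard error) within 60 bp and 5.14 ± 0.104 per Kb between 120 and 200 bp. Limb only peaks showed the same order, with 5.75 ± 0.0332 and 5.36 ± 0.0277 per Kb. These differences were not tested. ECC-Limb-PNST peaks had fewer E-boxes at the centre than at the flanks, 3.62 ± 0.236 and 4.99 ± 0.240 per Kb.

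**Figure D4:**
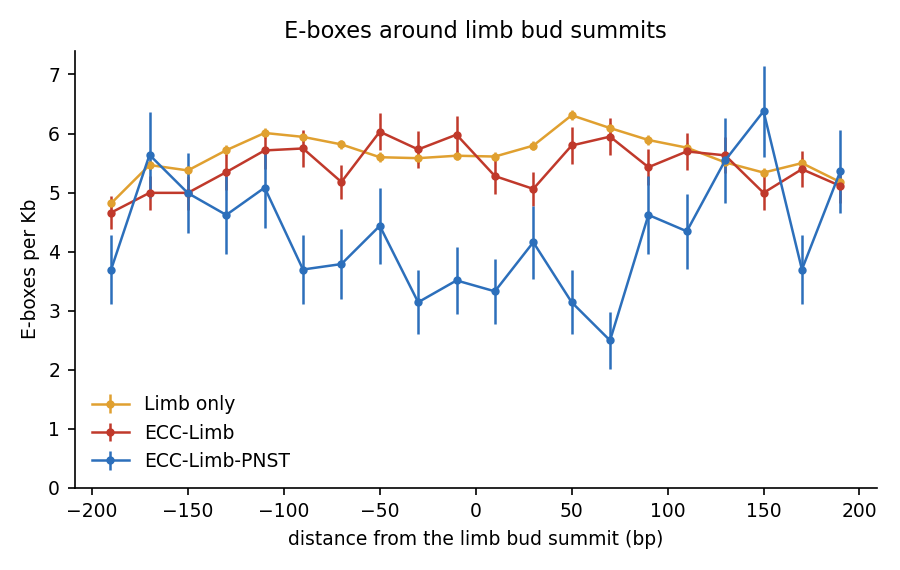
E-boxes per Kb in bins of 20 bp around the limb bud summit, for Limb only (orange), ECC-Limb (red) and ECC-Limb-PNST (blue) peaks; bars are Poisson standard errors and cover counting only. The ECC-Limb line stays between 4.66 and 6.03 per Kb, and the ECC-Limb-PNST line lies lower within 60 bp of the summit.

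The kind of E-box differed more than the number. CACCTG, with CAGGTG on the other strand, made up 1060 of the 3548 E-boxes of ECC-Limb peaks (29.9%, 28.4 to 31.4) and 23.4% of those in Limb only peaks (23.0 to 23.8). Its share was 31.4% (27.7 to 35.3) in ECC-Limb-PNST peaks and 17.1% (14.1 to 20.5) in Limb-PNST peaks, so the larger share was not particular to ECC-Limb peaks. This form is the E-box to which E proteins and the Snail factors are known to bind. CAGCTG made up 14.2% of E-boxes in ECC-Limb peaks and 9.17% in Limb only peaks, with 8.06% in ECC-Limb-PNST and 7.12% in Limb-PNST peaks. CATATG, a form known to be preferred by Twist1 dimers, accounted for 117 E-boxes (3.30%, 2.73 to 3.94) in ECC-Limb peaks, but for 11.04% (10.7 to 11.3) in Limb only peaks. In the groups with a PNST peak, its share was 3.95% (2.55 to 5.82) of E-boxes in ECC-Limb-PNST peaks and 10.9% (8.40 to 13.7) in Limb-PNST peaks, so both groups without an ECC peak held the larger shares. CAGATG or CATCTG, another preferred form, made up 11.4% (10.4 to 12.5) in ECC-Limb peaks and 15.5% (15.2 to 15.9) in Limb only peaks. Shared repeats contributed to these values. R3 was held by 97 ECC-Limb peaks (3.24%) and by 1038 Limb only peaks (2.38%). Of the 175 E-boxes in those 97 peaks, 170 were CACCTG, and 79 of the 112 E-boxes in R7 peaks were CACATG. By contrast the 171 R1 peaks held 21 E-boxes in all.

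Pairs of E-boxes spaced by 5 bases, an arrangement described for Twist1 dimers, were found in 24 members (0.802%, 0.514 to 1.19) and in 0.565% of Limb only peaks (0.497 to 0.640). The AGGTCA half-site of nuclear receptors, searched on both strands, lay in 299 members (9.99%, 8.94 to 11.1) in 7.71% of Limb only peaks (7.46 to 7.96), in 8.87% of ECC-Limb-PNST peaks and in 12.2% of Limb-PNST peaks (9.65 to 15.2). Between ECC-Limb and Limb only peaks, the intervals for the paired E-boxes overlapped and those for the half-site did not, while for the half-site those of ECC-Limb and Limb-PNST peaks did. Neither count is corrected for the longer peaks of the ECC-Limb group. Median lengths were 164 bp in ECC-Limb and 143 bp in Limb only peaks, and upper quartiles were 223 and 172 bp. A longer peak has more positions for a site, and whether either share differs per base was not tested.

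Summits were mostly intergenic. By the protein-coding transcripts of GENCODE vM1, 2133 summits (71.3%) were intergenic, 783 (26.2%, 24.6 to 27.8) intronic, 54 (1.80%, 1.36 to 2.35) exonic and 23 (0.768%) within 1 Kb upstream of a transcriptional start site (TSS). Intronic summits made up 27.8% of Limb only peaks and exonic summits 0.631% (0.559 to 0.710). Of the exonic summits, 40 were in coding exons and 14 in untranslated regions. Many coding exons belonged to gene families with near-identical copies, in which reads cannot be assigned to 1 copy. They included the histone H3 genes Hist1h3b, Hist1h3d and Hist1h3f with 8 to 10 limb bud tags, the ribosomal protein gene Rpsa with 18 limb bud and 5 ECC tags, the tubulin gene Tuba1b with 19 and 5 tags, and annotated copies of ribosomal protein genes such as Rpl7a-ps8. Promoter peaks were found at the histone genes Hist1h2ah, Hist1h2ai, Hist1h2ak and Hist1h2ao, and the member in the untranslated region of Eef2, which encodes a translation elongation factor, had 16 limb bud and 12 ECC tags in mostly single-copy sequence. These genes were picked after their values were seen.

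Every chromosome carried members. They made up between 5.31% (X, 205 of 3861) and 7.80% (chromosome 8, 180 of 2309) of placed limb bud peaks on the chromosomes other than Y, where 5 of 69 peaks belonged to the group. When members within 10 Kb of each other were joined, 2755 loci remained, of which 2562 held 1 peak.

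Of the 2993 members, 1688 (56.4%, 54.6 to 58.2) lay within 50 Kb of a gene by the distances in the list, against 53.9% of Limb only peaks (53.4 to 54.3). These distances run to an exon or coding edge of the gene rather than to its TSS in most rows. The members named 1778 genes, or 13.9% of the 12747 genes that had any limb bud peak within 50 Kb. This value is the background against which gene lists are read below. A single member was found for 1551 genes, 227 genes had 2 or more and 50 genes had 3 or more.

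The genes with the most members were tandem gene families. Snord116l1, one of the C/D box small nucleolar RNA copies of the imprinted Prader-Willi region on chromosome 7, had 10 ECC-Limb peaks, with 24 to 715 limb bud tags and 18 to 113 ECC tags. Speer7-ps1, a member of the Speer family on chromosome 5, also had 10, with 9 to 217 and 6 to 35 tags. 4930467E23Rik on chromosome 8 had 9 peaks with 28 to 388 limb bud and 10 to 121 ECC tags. Rn4.5s, the 4.5S RNA that is encoded by a tandem array on chromosome 6, had 9 peaks with 55 to 198 and 28 to 113 tags. Speer8-ps1 had 8 peaks with 65 to 101 and 10 to 33 tags.

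The 60 members with at least 100 limb bud tags were mostly broad peaks in repeated sequence, and 6 of them were mostly single-copy. Their median fold enrichment was 4.77, with a range from 2.73 to 55.7, below the median of 13.9 of the whole group, and their median length was 1099 bp. A typical 32-mer in them had 4 copies, and 57 of the 60 held an E-box, at 6.55 E-boxes per Kb. On chromosome 8 lay 23 of them, on chromosome 5 11 and on chromosome 6 6. Their median ECC to limb bud ratio was 1.12 once depth was scaled. This ratio counts tags over whole called peaks, whose lengths can differ between the tissues, so it is not a level per base.

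The peaks with the highest limb bud fold enrichment within 50 Kb of a gene were narrower. In intron sequence of Trpm3, a cation channel gene, a peak of 107 bp at chr19:22926499-22926605 had 30 limb bud tags with a fold enrichment of 75.7 and 18 ECC tags with 95.2. In Copz1, which encodes a coatomer subunit, the values at chr15:103106454-103106621 were 30 tags with 67.8 and 5 tags with 47.0. The intronic peak of Fgf14, a fibroblast growth factor homologous factor, had 30 tags with 47.0 in limb buds and 13 tags with 75.2 in ECCs. Its sequence and that of the Olfr761 peak, with 31 and 13 tags, are nearly the same run with CAGGTG and CATGTG E-boxes, and their typical 32-mers had 402 and 399.5 copies. Vwa3a (20 and 6 tags) and BC017158 (28 and 8 tags) were R1 peaks without an E-box. The remaining peaks were near Pcdhga12 (23 and 5 tags), Sos2 (196 and 21), Ctnna1 (18 and 10) and Nxph1 (19 and 5).

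Among mostly single-copy members within 50 Kb of a gene, the highest fold enrichment was in an intron of Sos2, a guanine nucleotide exchange factor for Ras. That peak, at chr12:70755024-70755330, held 1 E-box and had 196 limb bud tags with a fold enrichment of 48.7 and 21 ECC tags with 46.1. The paper chose a Sos2 region as limb bud-specific. By ChIP-qPCR it reports Twist1 binding there for limb buds, and none for ECCs or PNST cells. Its primer product, placed in mm9, did not touch this member, and whether the regions are the same was not tested. The Sos2 peak was followed by peaks near 4933424B01Rik (18 limb bud and 8 ECC tags), Daam1 (18 and 7), D430019H16Rik (15 and 6), Mfng (18 and 8), Cdh13 (17 and 5), Klf7 (16 and 9), 1700057K13Rik (17 and 7), Cd200 (23 and 10) and Prkch (15 and 6). Daam1 acts in Wnt signaling to the cytoskeleton, Mfng modifies Notch and Cdh13 is a cadherin without a cytoplasmic tail. An E-box was present in 4 of these 10 peaks, namely Sos2, 4933424B01Rik, Daam1 and Prkch. The Daam1 sequence holds a CAAATG and a CATCTG site before a GT run, and the Cdh13 peak is centred on a C run. Over all 75 single-copy members, 31 held an E-box (41.3%, 30.1 to 53.3), 51 summits were intergenic, 21 intronic, 2 promoter and 1 exonic.

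The extremes of the ratio were found where the called peaks differed in length. Among members with at least 20 tags in either list and within 50 Kb of a gene, high ratios of 17.7 and 15.8 were found for a pair of Nipal2 peaks of 136 and 144 bp. Both were overlapped by 1 ECC peak of 630 bp with 30 tags, and a limb bud peak of 9 tags near Spata16 was overlapped by an ECC peak of 30 tags (15.8). In an intron of Wdr76, a peak had 18 limb bud and 61 ECC tags and a ratio of 16.02. The lowest ratio was 0.250 for a limb bud peak of 3368 bp in Sfi1, with 661 limb bud tags, whose ECC peak of 451 bp had 35 tags. Low values followed near Lyzl1 (0.354), Gm9758 (0.391), Dhx8 (0.409) and Pde12 (0.430). The 2993 members were overlapped by 2904 distinct ECC peaks, so that some ECC tags were counted for more than 1 member.

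Mid1 and Cdc42bpa are genes for which the study examined a region by ChIP-qPCR. It reports Twist1 binding at both regions in ECCs and in limb buds. The members described here were assigned to these genes by the distances in the list, and the primer products, placed in mm9, did not touch these members. Whether the regions are the same was not tested. Mid1 encodes a microtubule-associated ubiquitin ligase, and 6 members between chrX:166430126-166446594 were assigned to it. They had 107, 66, 35, 42, 108 and 90 limb bud tags in order of position. The pair with 107 and 66 tags was overlapped by the same ECC peak of 61 tags, the pair with 35 and 42 by an ECC peak of 31 tags, and the others by peaks of 48 and 38 tags. The ratio was between 2.00 and 4.37 in all 6. Fold enrichment was low, from 3.93 to 8.38 in limb buds and from 5.29 to 9.08 in ECCs. The Mid1 sequence printed above is a tandem array without an E-box, and an E-box was present in 3 of the 6 peaks. At Cdc42bpa, which encodes a kinase that acts on the cytoskeleton downstream of Cdc42, 1 member lay 36081 bp from the gene. It had 17 limb bud tags with a fold enrichment of 27.3 and 5 ECC tags with 46.7, held CAGCTG and CAGGTG, and a typical 32-mer of it occurred 30 times.

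Genes of developmental pathways were counted in 8 lists of known members and in 2 lists of the study. Of 60 Wnt signaling genes with a limb bud peak within 50 Kb, 6 had an ECC-Limb peak (10.0%, 3.76 to 20.5, against the background of 13.9%). These were the ligand Wnt5b with 19 limb bud and 16 ECC tags, the receptors Fzd6 (9 and 12 tags) and Fzd8 (8 and 5), the co-receptor Ror2 (10 and 8), the R-spondin receptor Lgr6 (17 and 5) and Daam1 (18 and 7). The Wnt5b peak lay in an intron and was a run of the R1 unit without an E-box. The Ror2 peak, with 4 E-boxes, lay in an intron and held R4. By ChIP-qPCR, the paper reports Twist1 binding at regions assigned to Fzd8 in ECCs and to Wnt5b in limb buds. At the Ror2 region that it calls Ror2-a, it reports binding in every tissue examined, the tumor cells included. At another Ror2 region, Ror2-b, it reports binding for ECCs. The primer products for Ror2 and Wnt5b, placed in mm9, did not touch these members. Whether the regions of the paper are the members given here was not tested. Of the 6, Daam1 alone had a mostly single-copy peak.

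In the TGF-beta and BMP list, 2 of 36 genes had a member (5.56%, 0.680 to 18.7). Bmp10, a ligand needed for growth of the embryonic heart, had a peak 22751 bp away with 99 limb bud and 37 ECC tags and no E-box, and Bmp5 had one with 8 and 5 tags. Of 32 limb bud patterning genes, 3 had a member (9.38%, 1.98 to 25.02). They were Gli3, the transcription factor of Hedgehog signaling (21 and 8 tags), Fgf9 (13 and 10) and Lhx9 (12 and 7). Heart valve genes had 5 of 39 (12.8%, 4.30 to 27.4), namely Hey2 (20 and 10 tags), Zfpm2 (17 and 6), Adamts1 (11 and 6), Adamts5 (10 and 6) and Notch1 (8 and 7). Among Twist1 partners and known targets, 3 of 28 had a member (10.7%, 2.27 to 28.2). These were Cdh1, which encodes E-cadherin (22 and 15 tags), Tcf15 (21 and 5) and Twist2, the paralog of Twist1 (12 and 6). The intervals of all these lists included the background.

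Cadherins and catenins had the highest share of the 8 lists of known members. In this list, 14 of 46 genes had an ECC-Limb peak (30.4%, 17.7 to 45.8), through 16 peaks, and the interval did not include the background of 13.9%. The genes were Cdh1, Cdh3, Cdh5, Cdh6, Cdh13, Cdh20, Pcdh11x, Pcdh15, Ctnna1, Ctnna2, Ctnna3, Ctnnd1, Ctnnd2 and Dsc3. Cdh13 had 17 limb bud and 5 ECC tags, Ctnnd1 26 and 7, Ctnna1 18 and 10, Cdh5 17 and 9 and Cdh20 9 and 11. Of the 14 genes, Cdh13 alone had a mostly single-copy peak. Typical 32-mers of the Ctnnd1, Cdh20, Ctnna1 and Cdh5 peaks had 1154, 288, 32 and 3 copies. Genes of this list had a median of 3 limb bud peaks within 50 Kb, compared with 2 over all genes with one, and the part of this difference in the share was not tested. The list was chosen with earlier results of these data known.

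Axon and cell guidance genes had 9 of 40 (22.5%, 10.8 to 38.5), including Sema5b with 21 limb bud and 18 ECC tags over a triplet run, Slit3 (26 and 6), Slit2 (18 and 7), Dcc (17 and 6), Epha3 (9 and 10) and Plxna4 (8 and 7). Integrins, laminins and matrix genes had 7 of 56 (12.5%, 5.18 to 24.1), among them Itga11 (18 and 10 tags), Itga8 (14 and 14), the dystroglycan gene Dag1 (20 and 9), Tnr (13 and 6), Col12a1 (10 and 6) and Eln (11 and 5). Itga8 and Col12a1 had R1 peaks in introns, and neither peak held an E-box.

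In the cell adhesion list of the study, 56 of 108 genes had a member (51.9%, 42.0 to 61.6). In its cell migration list for limb buds, the count was 25 of 90 (27.8%, 18.9 to 38.2). The study picked both lists from genes with a Twist1 peak in these samples, so their shares are not independent of the peaks. In the first list, Tln2, which encodes a talin that links integrins to actin, had a peak with 11 limb bud and 5 ECC tags in an intron. All of its 32-mers were unique, and it held 1 E-box, CATGTG, beside a C run. Prkca (32 and 19 tags), Cldn18 (30 and 12), Gp9 (36 and 6) and Il12a (30 and 5) had more tags, and those of Cldn18 and Gp9 were R1 peaks. In the second, Anxa3 (28 and 13), Ceacam1 (32 and 6), Prkg1 (25 and 11) and Ppp2r3a (29 and 6) followed Sos2 and Cdh13.

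**Figure D5:**
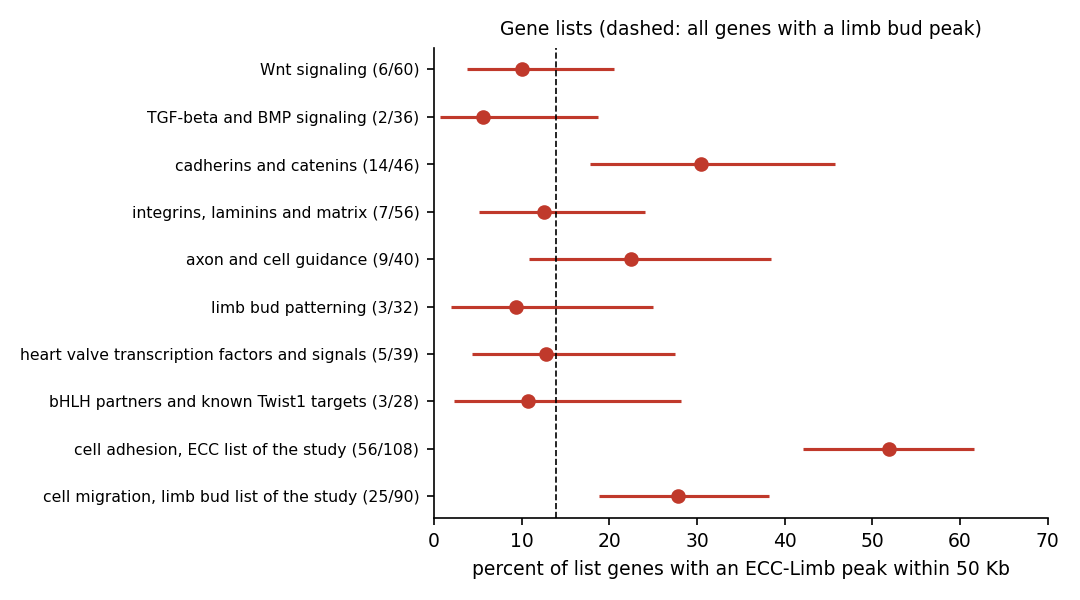
Percent of genes with an ECC-Limb peak within 50 Kb, among the genes of each list that had any limb bud peak within 50 Kb (numbers in parentheses), with 95% exact binomial intervals. The dashed line marks 13.9% of all such genes; the intervals of cadherins and catenins (30.4%) and of both lists of the study lie above it, and the interval of axon and cell guidance (22.5%) includes it.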

How the data were processed

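ChIP-seq with anti-Twist1 was performed by the authors in 3 tissues with 1 sample each, with single reads of 50 bp mapped to mm9 and peaks called per sample with MACS 1.4.2 (p-value limit 1e-05). The deposited tag counts are reads per peak after at most 1 read was kept at each position, not scaled for depth. Per the file headers the p-value is 10 times its −log10, and the authors gave the fold enrichment as a ratio to the local background. Gene distances in the deposited lists ended within 5 bp of an exon or coding edge of the named gene in 88.9% of 91600 cases, and within 5 bp of a transcript start in 17.5%.

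Starting from these lists, overlaps were computed in Python 3.11.15 on 1-based positions and tested on simulated peaks. Tags were divided by the filtered totals of the headers. The ECC peak with the longest overlap was taken for each limb bud peak. Sequences and 32-mer counts came from NCBIM37, which is mm9, and locations from GENCODE vM1. Shares carry 95% exact binomial intervals and medians carry order-statistic intervals, and no test between tissues was possible with 1 sample each. A gene was named for being tested by ChIP-qPCR, for 1 of the 10 highest limb bud fold enrichments within 50 Kb of a gene (all members, and mostly single-copy members), for the most members, for the 5 highest or lowest ratios with at least 20 tags in a list, or for up to 6 genes of each list with the most tags, single-copy peaks first. The members, lists and rules were chosen with earlier results of these data known. Reads, the control library and the expression arrays were not used here. Some sequences and 1 gene are not reported here.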

Additional observations from a re-analysis of the deposited data

How the results depend on the processing

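The number of ECC-Limb peaks stayed between 2323 and 3060 under every alternative overlap rule, in the ECC list, with unplaced sequences and with neighbours joined, within 1.5 times 2993. With a p-value cut-off of 1e-10 for limb bud and ECC peaks, 227 peaks remained, with 162 genes within 50 Kb, a median ratio of 2.30, an E-box share of 39.6% and a median summit distance of 24 bp. Only mostly single-copy peaks gave 54 genes, 61.3% within 50 Kb, a median ratio of 2.17 and an E-box share of 41.3%. A distance limit of 10 Kb left 833 genes and 29.6% of peaks, and 47.9% of peaks lay within 50 Kb of a TSS of GENCODE vM1, an alternative chosen after seeing the data. The median ratio was 2.18 with totals before the duplicate filter, 3.13 with the sum of tags in all peaks and 2.30 with tags per 100 bp. The share past a 2-fold ratio in either direction, 69.7%, was 85.9% for 1.5-fold and 73.6% with tags per 100 bp. The E-box share was 35.8% within 50 bp of the summit and 39.6% in the part overlapped by the ECC peak, which are shorter sequences. Intronic summits made up 28.4% with transcripts of all gene types. The cause of the other changes was not tested. No paired analysis was possible because each tissue has 1 sample, and for the same reason no replicate could be left out.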

Other observations

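The study's primers for ChIP-qPCR were searched as exact matches in mm9, with products of at most 1000 bp. Of 27 pairs, 26 gave 1 product. None of these 26 products touched a peak of the limb bud, ECC or PNST list, and so none touched an ECC-Limb peak. The products were placed in mm9 only, and whether the primers were designed on coordinates of another build was not tested, so these values do not show that the regions of the study lack a peak. The Mid1 product lay 3568200 bp from the nearest member assigned to Mid1, the Cdc42bpa product 1930006 bp from the member assigned to Cdc42bpa, and the Sos2 product 1100718 bp from the Sos2 member. The Wnt5b product lay 80021 bp from the Wnt5b member.

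Across the 2993 members, limb bud and ECC tags had a Pearson correlation of 0.772 and a Spearman correlation of 0.387, and for the fold enrichments these were 0.628 and 0.588. In the 75 mostly single-copy members, the values for tags were 0.554 and 0.640. These are correlations across peaks, which share 1 library for each tissue, peak length and copies of the same sequence, and are given as a description.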
